A study of Rattus norvegicus with 12 samples.

Results

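The genes described here mark blood vessels in the rat urinary bladder: 8 named markers of endothelial cells (Pecam1, Cdh5, Esam, Plvap, Kdr, Tek, Vwf and Cd93) and 2 of pericytes (Rgs5 and Pdgfrb). They were chosen by name, and a probe belonged to a gene where its RefSeq accession mapped to that gene. This found 9 probes for 9 of the 10 genes, 7 endothelial and 2 of pericytes, among 20425 genes tested. Of these 20425, 12036 had a gene symbol. The rest were counted by the identifier on the array, which can repeat a gene, and shares of all genes include them. Vwf was matched by no accession and is not analysed here. RNA of the bladder body was hybridised to 12 arrays of 1 colour, 1 male Fischer 344 rat per array. The 4 young animals were 6 months old and ate freely. The 4 old freely fed animals were 25 to 28 months old. The 4 old restricted animals, of the same ages, had been given food on 3 days a week from 6 weeks of age, with intake lower by approximately 40%. The title of the series names inflammatory and oxidative changes with age and their prevention by restriction as its subject.

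Endothelial cells line vessels and are joined by adherens and tight junctions, while pericytes wrap the small vessels from outside. Vascular endothelial growth factor acts on the lining through the receptor that Kdr encodes, angiopoietins act through the receptor that Tek encodes, and platelet-derived growth factor from endothelium recruits pericytes through the Pdgfrb receptor. In the bladder a dense capillary bed lies beneath the urothelium, and larger vessels run through the detrusor muscle.

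A level is the log2 processed signal of a probe minus the 75th percentile of its array, so levels compare animals for 1 gene and not 1 gene with another. Sums of linear levels over a list, given below, are weighted to its brightest probes. They too compare animals and do not measure the amount of a cell type. Each of the 9 genes was well above background on 12 of 12 arrays. Of 9 smooth muscle and 9 urothelial markers, all were above background on every array except Tagln, a smooth muscle gene, on that of old freely fed replicate 4. Array 75th percentiles ran from 3993 to 4892 signal units. Of 30367 probes, 21659 to 22294 were well above background in young, 23373 to 24644 in old freely fed and 22566 to 23200 in restricted rats. The groups did not overlap in this. Nor did they in the mean level of negative control spots, at -9.18 to -8.94, -10.45 to -9.97 and -9.81 to -9.54. The part of background in the differences between groups was not tested. In a principal component analysis old freely fed replicate 2 scored 51.9 on the leading axis, and the other 3 of its group 7.27 to 13.7. Young and old freely fed animals occupied different array rows of 1 slide, so age and array row cannot be told apart. Those of restricted rats were on another slide, so restriction and slide cannot be told apart. The RNA came from whole tissue, in which fewer vessel cells and less RNA per vessel cell cannot be told apart.

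RefSeq promoter windows were at hand for 3 of the 10 genes. All 3 are shown. Of these, Plvap and Rgs5 were lower in restricted than in freely fed old rats, and Kdr did not pass in any comparison. Each line holds the 250 bases before the start of the gene in the GRCr8 assembly, read 5′ to 3′ on the strand of the gene, at chr16:18231280-18231529 on the minus strand for Plvap, chr13:84380827-84381076 on the plus strand for Rgs5 and chr14:32571813-32572062 on the plus strand for Kdr. Capitals mark GGAA on either strand (TTCC as printed for the other), the core that transcription factors of the ETS family recognise.
Plvap: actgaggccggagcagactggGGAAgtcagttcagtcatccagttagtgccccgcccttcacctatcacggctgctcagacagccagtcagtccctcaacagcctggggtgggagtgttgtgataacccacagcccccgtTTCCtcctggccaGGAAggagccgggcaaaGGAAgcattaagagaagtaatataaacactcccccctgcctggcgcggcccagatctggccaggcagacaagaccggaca
Rgs5: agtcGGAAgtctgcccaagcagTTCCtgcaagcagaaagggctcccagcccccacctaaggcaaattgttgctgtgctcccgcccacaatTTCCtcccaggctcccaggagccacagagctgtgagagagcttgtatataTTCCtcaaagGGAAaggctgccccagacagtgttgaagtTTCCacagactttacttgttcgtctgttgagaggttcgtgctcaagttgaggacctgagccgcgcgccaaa
Kdr: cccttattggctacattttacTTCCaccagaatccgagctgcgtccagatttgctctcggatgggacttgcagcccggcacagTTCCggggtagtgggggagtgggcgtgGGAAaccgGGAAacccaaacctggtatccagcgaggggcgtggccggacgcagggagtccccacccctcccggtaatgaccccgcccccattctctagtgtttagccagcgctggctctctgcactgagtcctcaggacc
The window of Plvap held 4 matches, that of Rgs5 6 and that of Kdr 4. Of 33469 rat promoter windows of this length 93.2% held at least 1 match, with a median of 3, so the letters are common. The windows were 59.2%, 54.4% and 61.6% G and C for Plvap, Rgs5 and Kdr, where the median window had 51.2%.

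In old rats under restriction, 4 of the 9 genes were lower than in old freely fed rats: Cd93 by 1.44-fold, Rgs5 by 1.5-fold, Plvap by 1.31-fold and Pecam1 by 1.29-fold. The remaining 5 did not pass, although all 9 log2 changes were below 0 (median -0.20, range -0.58 to -0.09), beside a median of 0.02 over all genes with 42.6% below 0. Of all 20425 genes 2.02% were called lower and 3.64% were called in either direction at an adjusted p of 0.05. Every restricted animal was below every freely fed old animal for 5 of the 9, the 4 named and Esam, and for 6.05% of all genes. Between restricted old and young rats 3 genes were lower: Cd93 by 1.3-fold, Cdh5 by 1.27-fold and Esam by 1.23-fold. There 5.99% of all genes were called lower and 9.18% in either direction, and all 9 log2 changes were again below 0 (median -0.18, beside -0.01 for all genes), though Pdgfrb, at -0.01, was above 0 with median centring, with normexp correction and with normexp and quantile scaling. Every restricted animal was below every young one for the 3 named genes and for 10.8% of all genes. Log2 changes below 0 made up 52.8% of all genes in that comparison. Between old and young freely fed rats 0 of 9 passed with limma, while 3.72% of all genes were called. Before adjustment 4 of the 9 had a p under 0.05, 2 higher in old rats and 2 lower. For 1 gene, Plvap, every old animal was above every young one, as for 5.69% of all genes. The 9 log2 changes ran from -0.24 to 0.29 (median 0.08, beside -0.05 for all genes). Of the 9, 3 were below 0, beside 62% of all genes. The 3 comparisons share groups, so their values stand side by side and are not independent of each other.

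**Figure D1:**
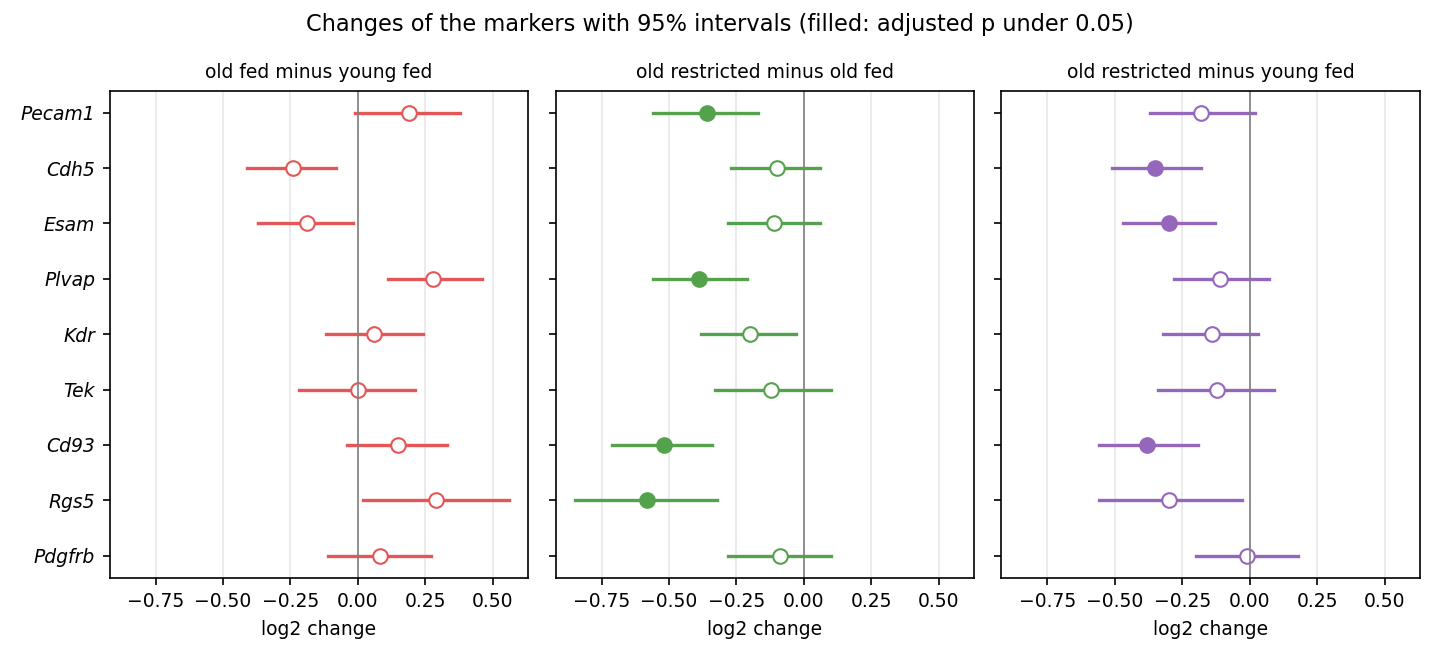
Log2 change of each of the 9 genes (x axis, points) with its 95% interval (lines) in the 3 comparisons, with filled points for genes past an adjusted p of 0.05 in limma. The 4 filled points for restricted against freely fed old rats lie between -0.58 and -0.36, and no point is filled for old against young freely fed rats.

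Among the junction genes, Pecam1 encodes the adhesion protein CD31, which sits between endothelial cells and is also carried by platelets and leukocytes. Its levels were 1.01, 1.05, 0.90 and 1.16 in young, 1.20, 1.47, 1.13 and 1.07 in old freely fed and 0.96, 0.85, 0.89 and 0.71 in old restricted rats (replicates 1 to 4). All 4 restricted animals were below all 4 old freely fed ones, and the highest of the 12 was old freely fed replicate 2. The difference was -0.36 on the log2 scale (SE 0.09, adjusted p = 0.047) for restricted against freely fed old rats. It was 0.19 (adjusted p = 0.22) for age and -0.18 (adjusted p = 0.23) for restricted old against young rats. With 1 animal removed the call with restriction held in 2 of 12 fits (young replicate 4 removed, or old freely fed replicate 4), and the change was -0.28 (adjusted p = 0.078) without old freely fed replicate 2.

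Cdh5 encodes VE-cadherin, the adherens junction protein of endothelium. It had levels of -2.57, -2.72, -2.87 and -2.67 in young, -2.85, -2.91, -2.98 and -3.07 in old freely fed and -3.02, -3.04, -3.19 and -2.97 in old restricted rats. Every restricted animal was below every young one, while old freely fed animals overlapped both other groups. Cdh5 fell by 0.35 on the log2 scale between young and restricted old rats (SE 0.08, adjusted p = 0.020), a call that was lost without restricted replicate 3 (adjusted p = 0.057) and with normexp background correction (-0.27, adjusted p = 0.060). The other differences were -0.24 for age (SE 0.08, adjusted p = 0.086) and -0.10 for restriction (SE 0.08, adjusted p = 0.47).

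Esam, which encodes an adhesion molecule of endothelial tight junctions, followed the order of Cdh5. Its levels were 0.56, 0.16, 0.13 and 0.25 in young, 0.06, 0.08, 0.13 and 0.05 in old freely fed and 0.02, -0.02, -0.08 and -0.02 in old restricted rats. Young replicate 1 was the highest, and the restricted group overlapped neither of the others. Esam fell by 0.30 between young and restricted old rats (SE 0.08, adjusted p = 0.037). Without 1 animal it passed in 6 of 12 fits and not without young replicate 4, old freely fed replicate 3 or any of the 4 restricted animals (largest adjusted p = 0.099), nor with normexp correction (-0.26, adjusted p = 0.064). The differences of -0.19 for age (adjusted p = 0.15) and -0.11 for restriction (adjusted p = 0.47) did not pass.

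Plvap encodes the protein of the diaphragms that span the fenestrae and caveolae of endothelium. It had levels of 3.88, 3.87, 3.77 and 3.74 in young, 3.97, 4.31, 4.07 and 4.05 in old freely fed and 3.74, 3.59, 3.89 and 3.62 in old restricted rats. The old freely fed animals were the 4 highest of the 12, without overlap with either other group, which overlapped each other. Plvap fell by 0.39 with restriction (SE 0.08, adjusted p = 0.024), and lost this call without old freely fed replicate 3 or restricted replicates 2 or 4 (largest adjusted p = 0.078). Against young rats it was 0.28 higher in old freely fed rats (SE 0.08, adjusted p = 0.068), which did not pass with the 75th percentile scaling but did with quantile scaling (0.35, adjusted p = 0.044). Restricted old and young rats differed by -0.11 (95% interval -0.28 to 0.07, adjusted p = 0.43).

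Cd93 encodes a transmembrane lectin of endothelial cells that myeloid cells also carry, and it showed the smallest p-value of the 9 genes with restriction. Levels were 1.39, 1.46, 1.29 and 1.26 in young, 1.30, 1.71, 1.46 and 1.51 in old freely fed and 1.11, 0.98, 0.95 and 0.84 in old restricted rats. The restricted animals were the 4 lowest of the 12, and the freely fed groups overlapped. Cd93 fell by 0.52 with restriction (SE 0.08, adjusted p = 0.0093) and passed in each of the 12 fits without 1 animal (-0.59 to -0.45, largest adjusted p = 0.031). Between young and restricted old rats Cd93 fell by 0.38 (SE 0.08, adjusted p = 0.021), and passed in 8 of 12 such fits, not without young replicates 1 or 2 or restricted replicates 2 or 3 (largest adjusted p = 0.059). The difference with age was 0.15 (95% interval -0.04 to 0.33, adjusted p = 0.31).

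The growth factor receptor genes did not pass in any comparison. Kdr, which encodes VEGF receptor 2, had levels of 1.59, 1.32, 1.35 and 1.55 in young, 1.41, 1.59, 1.48 and 1.57 in old freely fed and 1.24, 1.22, 1.51 and 1.26 in old restricted rats. Restricted replicate 3 lay among the freely fed animals, and the other 3 restricted animals were below all 8 of them. The differences were 0.06 for age (adjusted p = 0.68), -0.20 for restriction (95% interval -0.38 to -0.03, adjusted p = 0.19) and -0.14 for restricted old against young (adjusted p = 0.28). Tek, which encodes the angiopoietin receptor Tie2, lay between -4.85 and -4.55 in young, -4.80 and -4.63 in old freely fed and -5.07 and -4.71 in old restricted rats. Its differences had 95% intervals of -0.22 to 0.21 for age, -0.33 to 0.10 for restriction and -0.34 to 0.09 for restricted old against young rats, and all 3 groups overlapped.

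The pericyte genes differed from each other. Rgs5 encodes a regulator of G protein signalling that is abundant in pericytes and vascular smooth muscle. It had levels of -1.48, -1.31, -1.23 and -1.36 in young, -0.89, -1.26, -0.78 and -1.29 in old freely fed and -1.70, -1.70, -1.38 and -1.77 in old restricted rats. All 4 restricted animals were below all 4 old freely fed ones, which spread over 0.51 log2 units, with replicates 1 and 3 the highest of the 12. Rgs5 fell by 0.58 with restriction (SE 0.12, adjusted p = 0.026), and passed in 7 of 12 fits without 1 animal, not without old freely fed replicates 1 or 3 or restricted replicates 1, 2 or 4 (-0.56 to -0.49 there, largest adjusted p = 0.080). The differences of 0.29 for age (adjusted p = 0.17) and -0.30 for restricted old against young rats (adjusted p = 0.15) did not pass. Pdgfrb, the receptor gene of pericytes that fibroblasts also express, lay between -0.85 and -0.56 in young, -0.82 and -0.47 in old freely fed and -0.87 and -0.66 in old restricted rats. All groups overlapped, and its log2 differences of 0.08, -0.09 and -0.01 for age, restriction and restricted old against young had adjusted p-values of 0.59, 0.58 and 0.95.

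**Figure D2:**
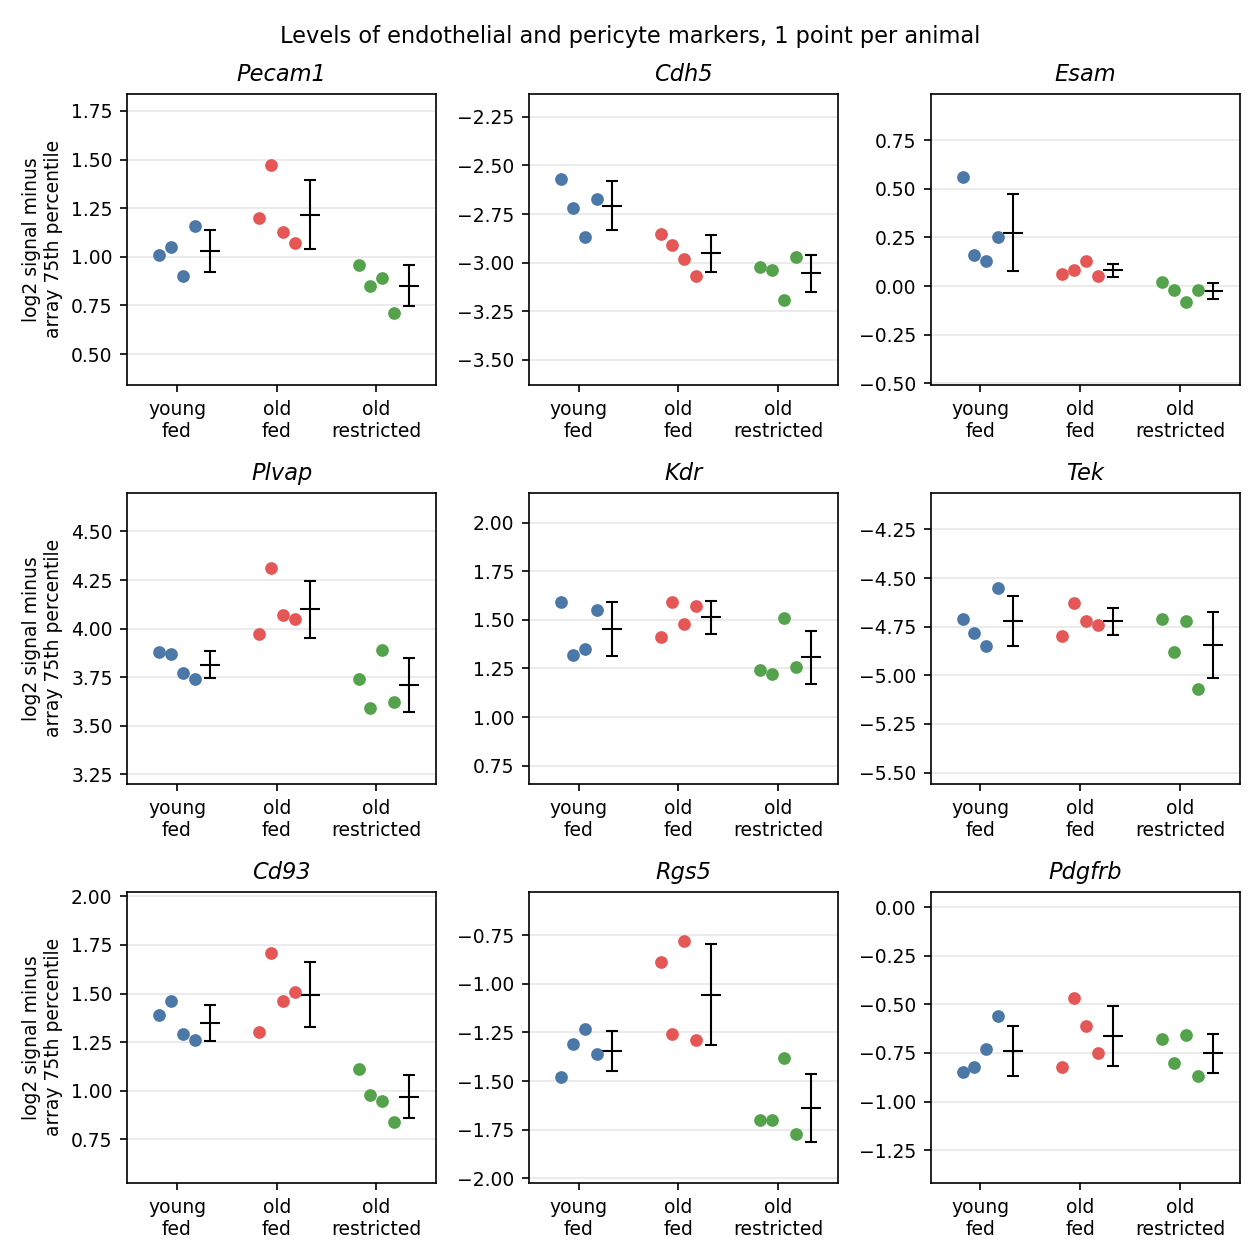
Levels of the 9 genes (y axis, log2 signal minus the array 75th percentile, each panel spanning 1.5 units) in the 3 groups of 4 animals, with points for animals in replicate order and black marks for the mean ± SD. Restricted animals are the 4 lowest for Cd93, and old freely fed animals are the 4 highest for Plvap.

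Over the 12 arrays some of the genes tracked each other, given here as a description. The log2 levels of Pecam1, Plvap and Cd93 correlated with each other at r = 0.83 to 0.84, and those of Cdh5 and Esam at 0.87. Pecam1 and Plvap also tracked other genes, at 0.72 for Pecam1 and Tek and 0.70 for Plvap and Kdr. Between Plvap and Cdh5 the correlation was -0.01, and between Plvap and Esam 0.10. Of 36 pairs 33 were above 0 (median 0.47). After the mean of each group was taken away 24 were above 0 (median 0.15), with 0.65 for Cdh5 and Esam, 0.70 for Plvap and Cd93 and 0.75 for Tek and Pdgfrb. The highest was then 0.76 for Pecam1 and Tek, while Pecam1 was at 0.59 with Plvap and 0.57 with Cd93. For Rgs5 and Cd93 the correlation went from 0.60 to -0.42 when group means were taken away. The points share array scaling and, in restricted animals, a slide.

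**Figure D3:**
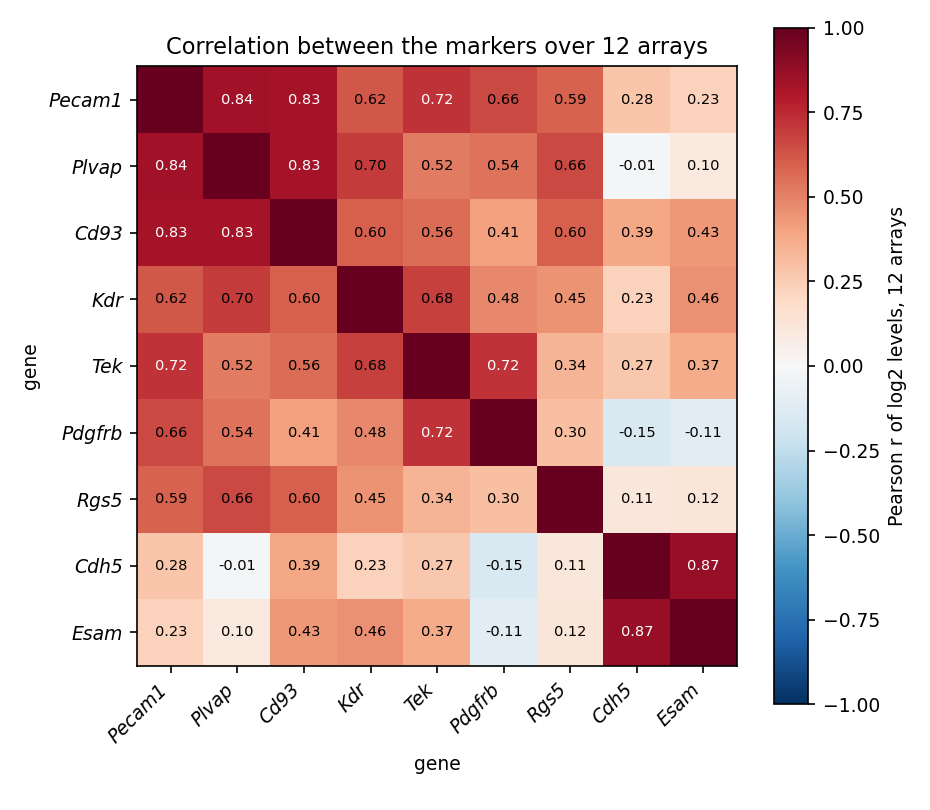
Pearson correlation of log2 levels over 12 arrays for each pair of the 9 genes (both axes list genes, colour and printed number give r). Pecam1, Plvap and Cd93 correlate at 0.83 to 0.84, though Pecam1 is also at 0.72 with Tek. Cdh5 and Esam pair at 0.87 and lie between -0.15 and 0.46 with the rest.

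Of 66 other vessel genes tested, 1 passed with restriction, where 3.64% of all genes were called. Of 19 tested among 24 other endothelial genes, 0 passed (limma; before adjustment, p under 0.05 for 1 higher and 3 lower), with a median log2 change of -0.14 and 14 below 0. S1pr1, a receptor for sphingosine 1-phosphate, had a log2 change of -0.27 (adjusted p = 0.074) and Emcn, which encodes endomucin, one of 0.21 (adjusted p = 0.12). Among 12 of 13 arterial, venous and Notch genes 0 passed with restriction (limma; before adjustment, p under 0.05 for 1 higher and 1 lower; median -0.15), Hey1, a Notch target, being at -0.38 (adjusted p = 0.058) and the venous regulator Nr2f2 at 0.14 (adjusted p = 0.19). With normexp correction, with or without quantile scaling, 1 gene of that list passed. Among 6 of 9 lymphatic genes 0 passed, and 0 had an unadjusted p under 0.05 (limma; median 0.04); Ccl21, a chemokine gene of lymphatic vessels, was at -0.32 (adjusted p = 0.35) and Pdpn at -0.09 (adjusted p = 0.45). Among 15 of 16 vascular growth factor genes 0 passed (limma; before adjustment, p under 0.05 for 0 higher and 3 lower; median -0.11), with the angiopoietin gene Angpt1 at -0.25 (adjusted p = 0.17) and Esm1, an endothelial proteoglycan gene, at -0.48 (adjusted p = 0.18). Among 14 of 15 other pericyte and mural genes 1 was lower, Anpep by 1.32-fold (log2 -0.40, SE 0.10, adjusted p = 0.049), with a list median of -0.11. Anpep, which encodes aminopeptidase N, passed in 1 of 12 fits without 1 animal, that without old freely fed replicate 4, and was lost with normexp correction, with no filter on dim probes, with no trend in the variance prior and in a fit of only the groups compared.

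With age, 1 of the 19 other endothelial genes passed, Cd34, a sialomucin gene that stromal cells also express, lower by 1.5-fold (log2 -0.58, SE 0.14, adjusted p = 0.045). It was lost with quantile scaling, with no trend and in a fit of only the groups compared, and passed in 3 of 12 fits without 1 animal, those with young replicate 3, young replicate 4 or restricted replicate 3 removed. In the growth factor list Esm1 was 1.73-fold higher (log2 0.79, SE 0.19, adjusted p = 0.043) and Pdgfa, a ligand of platelet-derived growth factor receptors, 1.25-fold lower (log2 -0.32, adjusted p = 0.040). Without 1 animal these passed in 3 and 4 of 12 fits, Esm1 when the animal removed was replicate 4 of either freely fed group or restricted replicate 3, and Pdgfa when it was old freely fed replicate 1 or restricted replicate 1, 3 or 4. Both were lost with no trend and in a fit of only the groups compared, and Pdgfa with median centring too. In the pericyte and mural list Anpep was 1.33-fold higher (log2 0.41, adjusted p = 0.047), and passed in 1 of 12 such fits, without old freely fed replicate 4. It was lost with normexp correction, with or without quantile scaling, with no trend and in a fit of only the groups compared. The arterial and venous list and the lymphatic list had 0 genes past the threshold with limma (before adjustment, p under 0.05 for 1 higher and 0 lower, and for 0 higher and 1 lower). The genes with the smallest p-values there were Notch1 (log2 0.19, adjusted p = 0.12), Efnb2 (-0.32, adjusted p = 0.25), Flt4 (-0.30, adjusted p = 0.19) and Pdpn (0.14, adjusted p = 0.22). The medians of the 5 lists ran from -0.05 to 0.06. Among all genes 3.72% were called with age, and the median was -0.05.

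Between restricted old and young rats, Hey1 was lower by 1.38-fold (log2 -0.47, SE 0.10, adjusted p = 0.017) and passed in each of the 12 fits without 1 animal (-0.54 to -0.37). Pdgfa was lower by 1.25-fold (adjusted p = 0.024), Cd34 by 1.43-fold (adjusted p = 0.042) and Rgs4, a relative of Rgs5 expressed in mural cells and neurons, by 1.6-fold (adjusted p = 0.036). Pdgfa passed in 9 of 12 such fits, not without young replicate 1 or restricted replicates 1 or 3. Rgs4 passed in 5 of 12, not without any of the 4 young animals or restricted replicates 1, 2 or 3, and Cd34 in 3 of 12, those with young replicate 3, young replicate 4 or old freely fed replicate 2 removed. Cd34 was also lost with quantile scaling and in a fit of only the groups compared. These were the only calls in the 5 lists in that comparison, in which the lymphatic list had 0 (limma; before adjustment, p under 0.05 for 0 higher and 1 lower), Flt4 being at -0.31 (adjusted p = 0.16) and Ccl21 at -0.28 (adjusted p = 0.36). The 5 list medians lay between -0.15 and -0.04. Among all genes 9.18% were called in that comparison, and the median was -0.01.

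**Figure D4:**
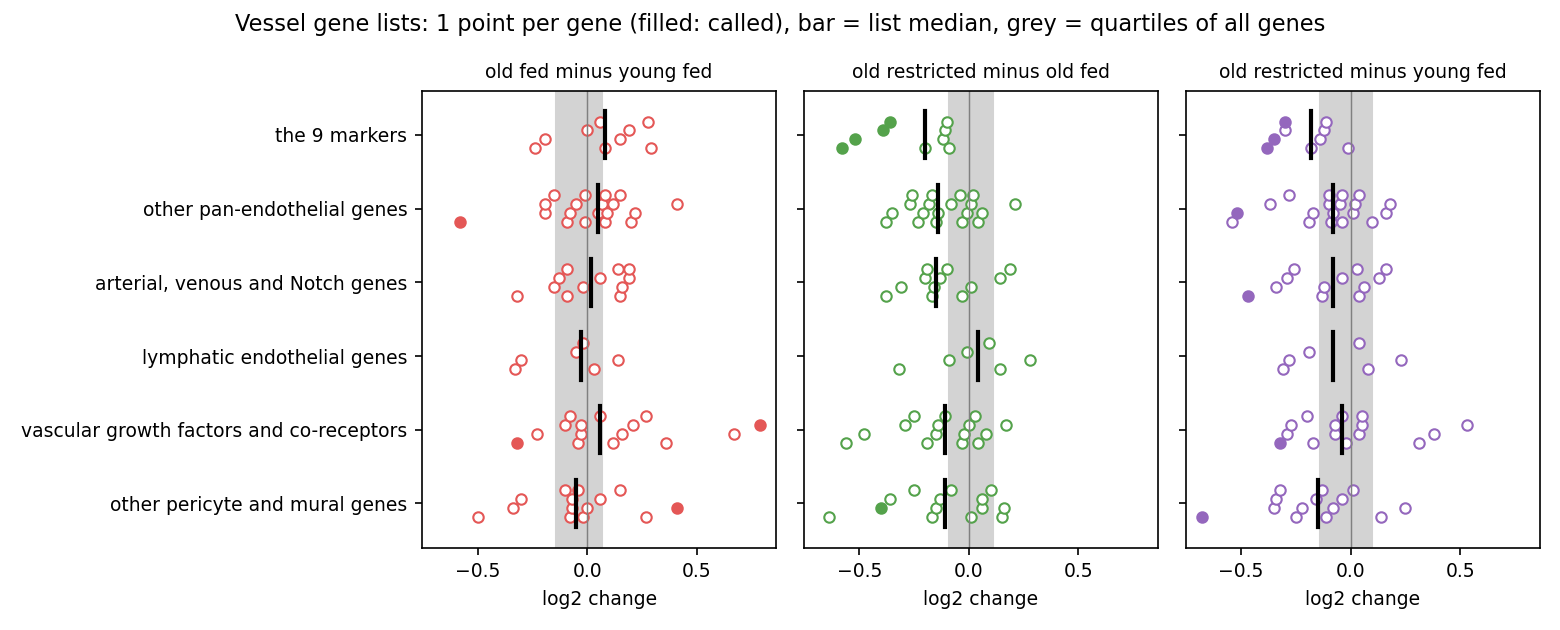
Log2 change of each gene (x axis, points, filled where called) in the 9 markers and 5 lists of other vessel genes (y axis) in the 3 comparisons, with black bars for list medians and grey bands for the quartiles of all 20425 genes. In restricted against freely fed old rats the median of the 9 markers is at -0.20 and those of the lists lie between -0.15 and 0.04.

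Leukocytes and platelets share some of these genes, and blood fills the vessels. Among 11 of 12 leukocyte markers 6 were higher in old than in young freely fed rats (median log2 change 0.83), and with restriction all 11 changes were below 0 (median -0.69) and 1 passed, the T cell gene Cd3d, lower by 1.64-fold (adjusted p = 0.016; not without restricted replicate 2). Their summed linear level, in units of the array 75th percentile, was 10.26 to 12.38 in young, 14.87 to 24.33 in old freely fed and 11.47 to 15.08 in old restricted rats. Most of the leukocyte sum was Laptm5 and Lcp1, with mean levels of 2.42 and 1.97 in young rats, against 0.05 or lower for the other genes. Among 4 of 7 platelet markers Pf4 was 1.54-fold higher with age (limma, adjusted p = 0.038). The call with age held in 3 of 12 fits without 1 animal, those without old freely fed replicate 4 or restricted replicates 1 or 3. It was lost with no trend and in a fit of only the groups compared. With restriction Pf4 was 1.8-fold lower (limma, adjusted p = 0.0098, in 12 of 12 fits). The list did not move as 1, with 2 of 4 changes above 0 and 2 below in both comparisons (medians -0.05 and -0.10). The summed platelet level was 1.40 to 1.79, 1.95 to 2.84 and 1.19 to 1.65 in the same groups. Most of that sum was Pf4, whose mean level in old freely fed rats was 1.17, against -4 or lower for the other genes. Among 3 of 6 red cell markers 0 passed with restriction (limma; before adjustment, p under 0.05 for 0 higher and 2 lower), with changes of -0.84 for Hbb (adjusted p = 0.15) and -1.28 for Alas2 (adjusted p = 0.22) and summed levels of 24.14 to 48.80, 22.42 to 69.35 and 17.00 to 26.13. Most of the red cell sum was Hbb, whose mean level in young rats was 5.28, against -1.85 for Alas2 and -4.75 for Slc4a1. Calls covered 3.72% of all genes with age and 3.64% with restriction. The part of leukocytes, platelets and red cells in the differences of Pecam1, Cd93 and the other vessel genes was not tested.

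Among cells that also express Rgs5 or Pdgfrb, smooth muscle markers had 0 calls with restriction in limma (0 of 9 at an unadjusted p under 0.05). The median log2 change was 0.06, with Myh11 at 0.09 and Tagln at 2.04 (SE 1.43). With age all 9 were below 0 (median -0.34), 8 at an unadjusted p under 0.05, and 2 were called lower. In restricted old against young rats all 9 were again below 0 (median -0.28), 7 at an unadjusted p under 0.05, and 3 were called lower. After quantile scaling the calls with age and against young rats became 0 and 1, and 0 and 0 where normexp preceded it. Of all genes, 62% were below 0 with age (median -0.05, and -0.02 after quantile scaling) and 52.8% against young rats (median -0.01). Calls covered 3.72% and 9.18% of all genes in these comparisons, and 3.64% with restriction. Of 7 fibroblast markers 0 passed with restriction in limma (before adjustment, p under 0.05 for 2 higher and 1 lower, median 0.09). With age all 7 were below 0 (median -0.26), 6 at an unadjusted p under 0.05, and 1 was called lower (Col1a2). In restricted old against young rats 5 were below 0 and 2 above (median -0.10), and 1 was called lower (Pi16). The Col1a2 call was lost with quantile scaling, with or without normexp, with no trend and in a fit of only the groups compared. The summed smooth muscle level was 482.99 to 501.30 in young, 313.84 to 454.59 in old freely fed and 378.34 to 445.24 in restricted rats. The old freely fed sums include replicate 4, on whose array Tagln was not above background. The mean level of Tagln was 4.03 (SD 4) in old freely fed and 6.30 (SD 0.03) in young rats. The summed fibroblast level was 189.90 to 258.00, 158.67 to 214.76 and 202.92 to 209.81 in young, old freely fed and restricted rats. Of 9 urothelial markers 0 passed with restriction in limma (before adjustment, p under 0.05 for 4 higher and 0 lower, median 0.15). Krt5 was higher with age and in restricted old against young rats. The call with age was lost with no trend and in a fit of only the groups compared. Most of the list went the other way with age, 7 of 9 being below 0 (unadjusted p under 0.05 for 2 higher and 3 lower). The list median with age was -0.16, and -0.04 after quantile scaling. In restricted old against young rats 4 were above 0 and 5 below (median -0.01).

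**Figure D5:**
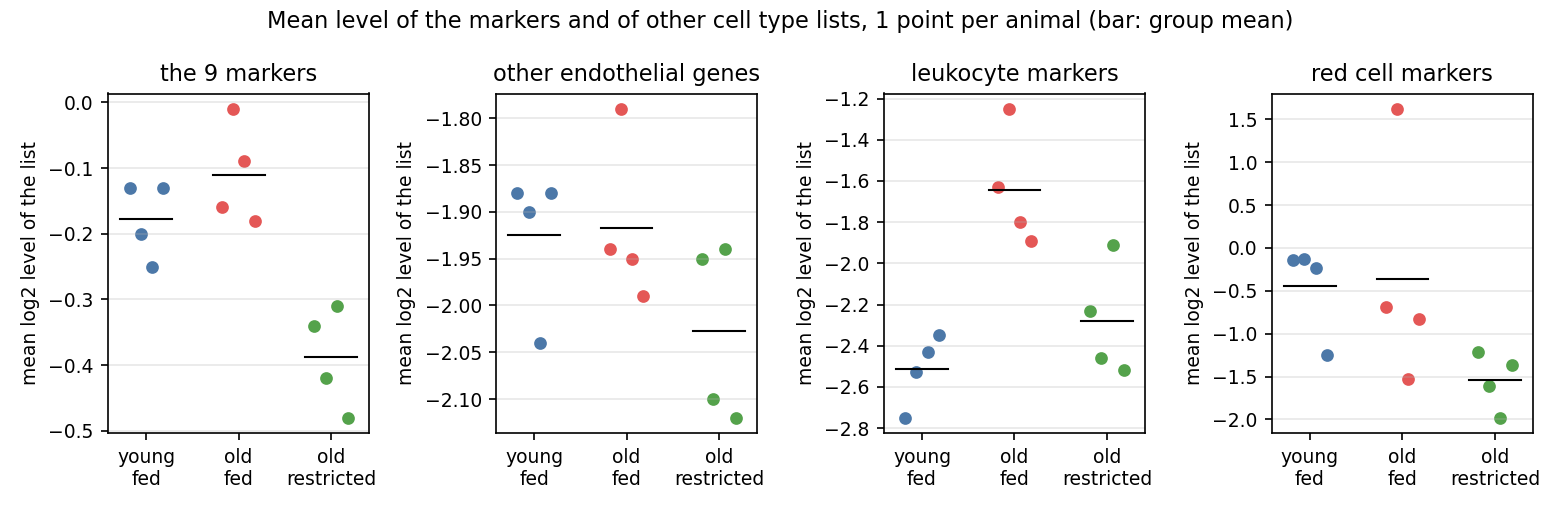
Mean log2 level (y axis) of the 9 markers, 19 other endothelial genes, 11 leukocyte markers and 3 red cell markers in each animal (points) of the 3 groups, with black bars for group means. The 9 markers lie between -0.48 and -0.31 in restricted and between -0.25 and -0.01 in freely fed animals, and the leukocyte markers are highest in old freely fed replicate 2.

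The genes with a symbol whose level tracked the mean of the 7 endothelial markers most closely over the 12 arrays, each marker scaled to mean 0 and SD 1, were the olfactory receptor genes Or9e1 (r = 0.948), Or6d13b (0.937) and Or8b12 (0.914), with Haao (0.919), which encodes an enzyme of tryptophan breakdown, and the kinase gene Taok3 (0.914). Taok3 was above background on 12 of 12 arrays, Or9e1 on 10, Or6d13b on 6, Or8b12 on 5 and Haao on 4. These correlations are a description, over points that share array scaling and slide. For all but Taok3 some of the values were not well above background, so no fold change is given.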

How the data were processed

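Spot intensities were deposited by the authors as Agilent Feature Extraction 10.7 files, per the submitters' processing notes, with background subtracted within each array and no scaling between arrays, per the file headers, which name build rn4. The series' deposited value table equalled them in 100% of spots (relative tolerance 1e-06). Groups came from the labels.

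Processed signals of 58717 non-control spots were taken as log2, less the array's 75th percentile, and averaged over the spots of each of 30367 probes, leaving out outlier spots where another was present. A probe stayed (23089 did) if it was well above background in every animal of some group, and the brightest stood for a gene. RefSeq accessions matched to a GRCr8 table named 59.3% of probes. limma 3.58 in R 4.3 was fitted to all 12 arrays with a brightness trend (9 residual and 2.72 prior degrees of freedom). Tests were two-sided, and p-values were adjusted over all genes by Benjamini-Hochberg, with calls under 0.05. The number of arrays limits the precision. The fit was tested on simulated data. The members and lists (128 symbols in 11 lists, 109 tested) were chosen with earlier results of these data known. Named genes were all members, up to 4 called genes per list by adjusted p (or 2 uncalled), and the 5 genes most like the endothelial mean. Normexp (offset 50) used median spot signals, not the mean signals first planned. Alternatives covered scaling, background, filter, probe choice, prior trend, samples fitted and replicate block.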

Additional observations from a re-analysis of the deposited data

Results flagged for a closer look

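Among 27 sets of 4 animals (9 genes in 3 groups), 1 had an animal apart from its group by Dixon's test at the 95% level, where chance gives about 1 in 20. It was Kdr in old restricted replicate 3, at 1.51 against 1.22 to 1.26 in the other 3 restricted animals (gap over range 0.86, critical value 0.829). In the same animal Rgs5 lay at -1.38 against -1.77 to -1.70, a ratio of 0.82, just under the critical value.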

How the results depend on the processing

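The 24 alternatives were 12 other settings and 12 fits that left out 1 animal. Of 648 values of members under them, 593 kept direction and side of the threshold, 40 lost a call, 3 gained one, 12 changed sign, and 0 of those were called. Pecam1 with restriction was also lost with no filter and with no trend, and Esam against young rats in a fit of only the groups compared and with normexp and quantile scaling. Members called with age numbered 1 (Plvap) in place of 0 with quantile scaling, with normexp and quantile scaling (adjusted p = 0.037) and with no filter on dim probes (adjusted p = 0.040), and 0 in every fit without 1 animal. With restriction they numbered 1 (Cd93) in a fit of only the groups compared and 1 to 4 without 1 animal (1 without old freely fed replicate 3 or restricted replicate 2 or 4, 2 without old freely fed replicate 1 or restricted replicate 1). Against young rats they numbered 1 with normexp and 0 to 3 without 1 animal (0 without restricted replicate 3, 1 without restricted replicate 2). Calls among all genes with age were 462 with normexp and quantile scaling, 3568 with no filter, 440 with no trend, 94 in a fit of only the groups compared and 121 to 922 without 1 animal, against 760. With restriction they were 477 in a fit of only the groups compared and 268 to 847 without 1 animal, against 744. Against young rats they were 3259 with no filter and 742 to 2079 without 1 animal, against 1874. The share of calls that were lower with age was 56.3%, against 41.7% after quantile scaling and 42.6% where normexp preceded it, 80.6% with no filter, 28.7% in a fit of only the groups compared and 31.9% to 68.9% without 1 animal (31.9% without old freely fed replicate 2), and with restriction 55.5% and 35.9% with normexp. Uncalled values near 0 changed sign: Pdgfrb against young rats (0.01 with median centring and with normexp, 0.00 with normexp and quantile scaling, -0.05 to 0.05 without 1 animal) and Tek with age (0.01 with quantile scaling, 0.00 with median centring, -0.04 to 0.05 without 1 animal). The labels do not say that replicate numbers pair animals. Deviations from the group mean correlated at -0.19 to 0.10 between animals of the same number, which cannot exclude a pairing. With a replicate block 2 members were called with restriction, Cd93 and Rgs5, and 498 genes with age. Among other genes named above, the block ended the calls of Anpep with restriction, of Cd34, Esm1, Pdgfa and Pf4 with age, and of Rgs4 against young rats. The causes were not tested. Dim genes limit what the signal over background can show.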
